A study of Mus musculus with 32 samples.

Results

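Gm830 (ENSMUSG00000084939) is a mouse gene on chromosome 4 that the annotation lists as a processed transcript and RefSeq as a long noncoding RNA. It is 1 of the 33397 genes in the table. It was chosen by its values: it was not raised at 1 and 3 d post denervation and then climbed to 28 d, so its levels below are a description and carry no test. Sequencing covered RNA of the gastrocnemius (GAS) muscle of C57BL/6 mice. The 32 samples fall into 8 groups of 4, taken 0, 1, 3, 5, 7, 14, 21 or 28 d after surgery. The sample labels list sciatic nerve transection for every group, day 0 included, whereas the paper sets a sham group without denervation against the denervated muscles, and the 4 columns named C were taken as day 0. Libraries are named by their columns, C1 to C4 for 0 d and the day with a letter for the others. The paper describes male C57BL/6J mice and biologically independent samples, and the labels give no age or sex. No transgene or deletion is listed for any group.

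A long noncoding RNA is transcribed and spliced like a messenger RNA but is not known to be translated into a protein. Some act on the expression of nearby genes, and many have no known role. When the sciatic nerve is cut, GAS muscle loses its motor nerve supply, its fibres shrink over weeks, and genes of the neuromuscular junction and of embryonic muscle are switched on. No function of Gm830 in muscle is assumed here.

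Gm830 lies on the minus strand of GRCm38 at chr4:95464724-95487394. Its transcript has 3 exons of 133, 197 and 3172 bases, 3502 bases in all, so that exon 3 holds 90.58% of the exonic sequence. The introns span 18015 and 1154 bases. The longest reading frame from ATG to a stop has 103 codons, and 45.29% of the transcript is G or C. A second noncoding gene, Gm12707 (ENSMUSG00000085835), runs on the opposite strand at chr4:95483956-95487401. Its exon 3 covers 124 bases of Gm830 exon 1, which is 3.54% of the exonic bases of Gm830 and 25.4% of those of Gm12707. The counting was not stated to use strand, so reads of either gene over these bases cannot be told apart.

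The promoter windows of Gm830 and of Fggy, the nearest protein-coding gene, are shown because both genes climbed over the same days, and exon 1 because of the overlap. The promoters are from RefSeq (GRCm38.p6), with 250 bases before the start and 50 after it, and the exon is from GRCm38. In the promoters capitals mark matches to CANNTG, the E-box that myogenic factors bind, and in the exon they mark the bases shared with Gm12707.
Gm830 promoter, chr4:95487480-95487779, minus strand: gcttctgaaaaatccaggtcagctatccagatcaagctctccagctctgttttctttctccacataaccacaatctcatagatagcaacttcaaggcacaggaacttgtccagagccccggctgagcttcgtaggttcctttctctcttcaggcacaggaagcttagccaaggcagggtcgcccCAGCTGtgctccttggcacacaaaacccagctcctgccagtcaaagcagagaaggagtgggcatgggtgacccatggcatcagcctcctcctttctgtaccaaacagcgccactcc
Fggy promoter, chr4:95557257-95557556, plus strand: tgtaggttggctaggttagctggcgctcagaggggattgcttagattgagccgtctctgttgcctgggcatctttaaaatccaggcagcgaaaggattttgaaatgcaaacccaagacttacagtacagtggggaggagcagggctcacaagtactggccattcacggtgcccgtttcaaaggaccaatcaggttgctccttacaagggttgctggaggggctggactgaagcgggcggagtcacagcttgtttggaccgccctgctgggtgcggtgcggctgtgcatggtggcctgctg
Gm830 exon 1, chr4:95487262-95487394, minus strand: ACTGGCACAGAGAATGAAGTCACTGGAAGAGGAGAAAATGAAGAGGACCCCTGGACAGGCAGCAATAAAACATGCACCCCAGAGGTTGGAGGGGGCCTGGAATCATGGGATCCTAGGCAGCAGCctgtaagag

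The RefSeq start of Gm830 lies 135 bases upstream of the start in the gene annotation. Its promoter window held a single E-box, CAGCTG, at position -66 from the start, and the Fggy window shown held none. Both strands were searched. Of 32851 promoter windows, 72.3% held CANNTG and 16.3% held CAGCTG, which is one of its forms. The AP-1 motif TGANTCA (7.81% of windows), TATAAA (13.6%) and the MEF2 consensus (3.19%) had no match in either window. A second Fggy window, at chr4:95579171-95579470, held the E-boxes CATGTG and CACATG.

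Values are FPKM, fragments scaled to exon length and to the total of the library. The depth recovered from the values was 14199902 to 17561584 fragments per sample (median 16663160), and replicates correlated across genes with r of at least 0.963. A single library of 3 d, D3a, stood apart from the others of its day on the first principal component (-19.4). Skeletal actin (Acta1) averaged 13883 FPKM at 0 d, and although the extraction notes mention retina, the 9 retina genes in the table summed to at most 0.547 FPKM at 28 d. Mitochondrial genes took 14.5% to 18.2% of fragments at 0 d and 9.34% to 11.7% at 28 d. The values of all other genes are shares of the same total, and the median gene tested stood 0.14 higher at 28 d than at 0 d on the log2 scale, or 0.02 after median-ratio scaling.

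At 0 d Gm830 was detected at a low level, with FPKM values of 0.834, 0.402, 0.337 and 0.845. At 1 d the values were 0.101, 0.0928, 0.319 and 0.173, and at 3 d they were 0.130, 0.102, 0.403 and 0.389. Each 1 d sample lay below each 0 d sample, as did 8.6% of all genes tested, whereas the 3 d samples overlapped both. These early values rest on few fragments, 18 to 47 per library at 0 d, 5 to 18 at 1 d and 6 to 23 at 3 d. Without D3a the 3 d mean was 0.298 ± 0.170 (SD, n = 3), against 0.256 ± 0.162 with all 4 libraries.

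At 5 d Gm830 stood at 2.33, 2.47, 3.42 and 2.89 FPKM, above every sample of 0, 1 and 3 d. At 7 d it was 6.40, 6.01, 5.53 and 5.83, again clear of every 5 d sample and with the least scatter of any day, a coefficient of variation of 6.15%. Of all genes tested, 35.9% at 5 d and 32.4% at 7 d likewise had their 4 samples above all 4 of 0 d. Fragment numbers were 137 to 209 at 5 d and 317 to 376 at 7 d.

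At 14 d the FPKM values were 12.6, 9.32, 14.9 and 11.7. At 21 d they were 16.6, 12.9, 14.1 and 15.1, and at 28 d they were 17.3, 21.2, 22.8 and 13.5. The 14 d samples all lay above those of 7 d, but the ranges of 14 and 21 d overlapped, and so did those of 21 and 28 d. The order of the last time points is therefore an order of means only. From 567 to 1320 fragments stood behind each of these 12 values.

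The group means of 1, 3 and 0 d were the lowest, at 0.171 ± 0.105, 0.256 ± 0.162 and 0.604 ± 0.273 (SD, n = 4 each). Those of 5, 7, 14, 21 and 28 d followed at 2.78 ± 0.494, 5.94 ± 0.365, 12.1 ± 2.31, 14.7 ± 1.58 and 18.7 ± 4.15. In this order the ranges of 1 and 3 d, 3 and 0 d, 14 and 21 d, and 21 and 28 d overlapped. The 28 d mean was 30.9 times that of 0 d. By 5 d the mean had reached 14.8% of its 28 d value, by 7 d 31.8%, by 14 d 64.8% and by 21 d 78.4%.

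**Figure D1:**
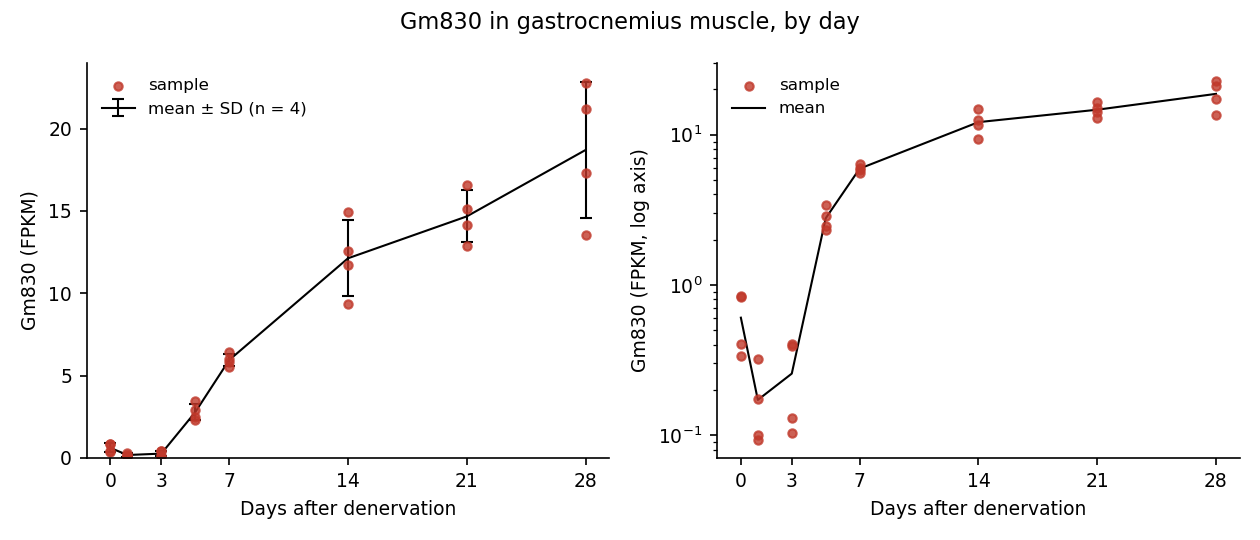
Gm830 in FPKM against days after denervation, on a linear axis (left, line and bars are mean ± SD, n = 4) and a log axis (right, line is the mean), with each sample as a point. The 0, 1 and 3 d samples all sit at or under 0.845 FPKM, and from 5 d on every sample is at or above 2.33.

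On the log2(FPKM + 1) scale, which understates changes of low values, Gm830 differed from 0 d by -0.44 and -0.35 at 1 and 3 d (SE 0.14 each). From 5 to 28 d the differences were 1.24, 2.13, 3.03, 3.30 and 3.61 for the 5 time points in turn. The difference between 28 and 3 d was 3.95, or 3.91 without D3a. After median-ratio scaling the 28 d difference was 3.40. The direction at each day was the same under each scaling, pseudocount and left-out sample that was run. As Gm830 was chosen for this course, that is a description.

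The 3893 tested genes of long noncoding classes, such as lincRNA and antisense, were ranked by mean FPKM, with rRNA and snRNA genes left out. Among them Gm830 ranked 633 at 0 d, 1603 at 1 d and 1205 at 3 d. On the 5 later days its rank was 168, 78, 37, 33 and 28. By 28 d it was thus among the more abundant genes of these classes. The gain in rank came mostly between 3 and 5 d.

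Chromosome 4 neighbours were taken by position alone, as genes whose body overlaps that of Gm830 or lies within 500 kb of it. There were 16 in the table, and 13 passed the filter of an FPKM of 0.1 in at least 4 samples. They were tested with limma in 1 fit of all 32 samples, and called at a Benjamini-Hochberg adjusted p under 0.05, over all genes tested, and 1.5-fold. At 28 d 4 of the 13 rose and 0 fell against 0 d, where 14.2% of all genes tested rose and 4.1% fell. The higher genes made up 77.6% of all calls at 28 d, and 44.8% after median-ratio scaling, under which 3 neighbours (Fggy, Jun and Gm12707) rose and Junos fell. The median log2 difference over all genes tested was 0.14. No median is given for the neighbours, since 5 of the 13 (Gm12707, Gm29064, Gm25004, 4930551L18Rik and n-R5s189) had at most 3 fragments in each 0 d library, and the 3 that had 0 in all of them passed the filter through later days alone. At an unadjusted p under 0.05 from limma, 8 of the 13 were higher and 1 was lower, where 41.8% of all genes tested were higher and 11.1% lower. The 8 include Gm12707, Gm29064 and n-R5s189. A gene at 0 in every 0 d library could only come out higher or unchanged, so neither count can be weighed against these shares.

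Those higher at 28 d were Fggy, Jun, Gm12707 and Gm29064, of which Gm12707 had 0 fragments and Gm29064 at most 2 in each 0 d library. Of the 13, 2 were higher at 1 d (6.34% of all genes tested), 3 at 3 d (13.2%) and 3 at 5 d (14.9%). Later counts were 6 for 7 d (15.4%), 4 for 14 d (14.6%) and 2 for 21 d (11.8%). The only neighbour called lower against 0 d was Junos, at 3 d, where 6.03% of all genes tested fell. On days 1, 5, 7, 14 and 21 the share that fell was 2.49%, 3.86%, 4.1%, 3.83% and 3.93%. All of these comparisons share the 0 d samples. Jun and n-R5s189 fall outside the rule for named genes and were named after their values were seen.

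Fggy (ENSMUSG00000028573), which encodes a kinase of the FGGY carbohydrate kinase family, lies on the plus strand at chr4:95557507-95926939. Its start is 70.1 kb from that of Gm830, and the genes point away from each other. At 0 d its FPKM values were 1.32, 1.57, 1.35 and 1.25, and at 3 d they were 1.70, 2.60, 2.98 and 3.41. At 28 d they were 20.3, 23.1, 28.7 and 23.0, with 1993 to 2773 fragments per library. Each 3 d sample lay above each 0 d sample, as in 23% of all genes tested, so Fggy had risen above its 0 d range at a day when Gm830 had not.

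Mean Fggy levels were 1.37 ± 0.138, 1.01 ± 0.108 and 2.67 ± 0.729 FPKM on days 0, 1 and 3 (SD, n = 4 each). They were 5.82 ± 0.380, 10.5 ± 2.73, 17.3 ± 2.47, 24.6 ± 3.94 and 23.8 ± 3.53 on days 5, 7, 14, 21 and 28. It did not pass at 1 d (log2 difference -0.24, limma Benjamini-Hochberg adjusted p = 0.223). At 3 d it rose by 0.61 (SE 0.14, limma adjusted p = 0.000612), but the call was lost after median-ratio scaling (0.47) and without day 0 library C4 (0.58) or the 3 d library D3c (0.56) or D3d (0.51). From 5 d the rise passed at every day, from 1.52 at 5 d to 3.42 at 21 d and 3.38 at 28 d (limma adjusted p = 1.85e-17), and at 28 d it was 3.11 after median-ratio scaling. Between 3 and 28 d it rose by 2.77 (limma adjusted p = 4.77e-15), or 2.63 without D3a.

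The FPKM ratio of Gm830 to Fggy, taken within each sample, changed along the course. Its mean was 0.453 ± 0.232 at 0 d, 0.180 ± 0.134 at 1 d and 0.0914 ± 0.0422 at 3 d (SD, n = 4 each). On days 5, 7, 14, 21 and 28 it was 0.476 ± 0.0704, 0.594 ± 0.150, 0.712 ± 0.185, 0.611 ± 0.139 and 0.788 ± 0.142. Per length, Gm830 thus averaged less than Fggy on every day. The ratio was lowest at 3 d, when every value was at or under 0.135, and every 0 d value was at or above 0.250.

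Gm12707, the gene that overlaps Gm830 on the other strand, was listed at 0 in all 0 and 1 d samples. At 3 d it had 0 to 2 fragments per library, at 7 d 2 to 10, at 14 d 2 to 14 and at 28 d 3 to 8. Its mean was 0.578 ± 0.299 FPKM at 28 d (SD, n = 4), against 18.7 for Gm830. Gm12707 met the call rule at 14 d (log2 difference 0.78) and 28 d (0.64), but as it was tested only because the later days passed the filter, these calls are a description. They were lost without the 14 d library D14c (0.57) and the 28 d library D28c (0.52). At 7 d it missed the 1.5-fold limit (0.57), and met it without D7a, D7b or D7c (0.61, 0.66 and 0.66), with a pseudocount of 0.1 (2.39) and as TPM (1.19). Without D7d the difference fell to 0.36. How many of its fragments came from the 124 shared bases was not tested.

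**Figure D2:**
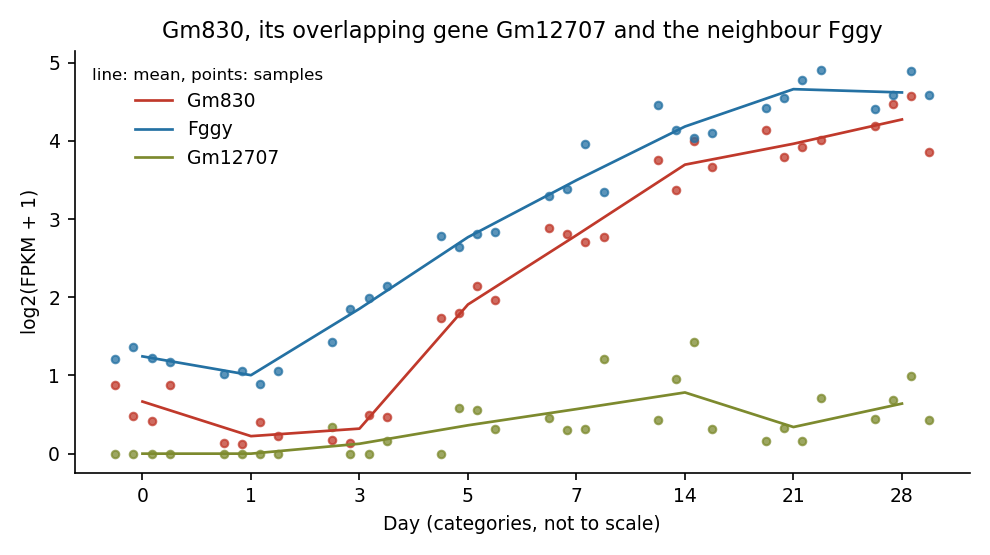
Gm830, Fggy and Gm12707 on the log2(FPKM + 1) scale by day, shown as equally spaced categories, with samples as points and the group mean as a line. Fggy lies above its 0 d samples from 3 d on and Gm830 from 5 d on, while Gm12707 stays at or under 1.68 FPKM.

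The other neighbours moved less or differently. Gm29064, a noncoding gene whose start lies 84.6 kb from that of Gm830, went from 0 to 2 fragments per library at 0 d to 7 to 10 at 28 d (0.0602 ± 0.0771 and 0.620 ± 0.105 FPKM, SD, n = 4). With its 0 d values at or under 3 fragments, it met the call rule at 28 d (log2 difference 0.61), but not after median-ratio scaling (0.56) or without day 0 library C2 or C4 (0.58 each) or 28 d library D28a (0.58). It also met it at 7 d (0.63), and without D7c it did not (0.57). Gm12708 (7 d) and the 5S rRNA gene n-R5s189 (7 and 14 d) were the remaining calls, and n-R5s189 rests on at most 4 fragments in any library.

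Jun, which encodes a subunit of the AP-1 transcription factor and starts 435 kb away, followed another course. On days 0, 1, 3 and 5 its means were 26.5 ± 5.09, 54.9 ± 7.58, 86.5 ± 8.84 and 105 ± 4.71 FPKM (SD, n = 4 each). They were 90.2 ± 10.9, 82.4 ± 9.31, 78.1 ± 8.85 and 87.6 ± 11.5 on days 7, 14, 21 and 28. Jun was called higher at every day, by 1.68 at 3 d and 1.70 at 28 d (limma adjusted p = 1.59e-12 and 1.78e-12), and the difference between 28 and 3 d was 0.01 (adjusted p = 0.957). Its mean was highest at 5 d, and it was already raised at 1 and 3 d, before Gm830 rose above its 0 d range.

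Junos, the antisense gene beside Jun, averaged 2.00 ± 0.513 FPKM at 0 d, 0.713 ± 0.0832 at 3 d and 1.16 ± 0.175 at 28 d (SD, n = 4). It fell at 3 d (log2 difference -0.80, limma adjusted p = 8.31e-07). At the other days its differences ran from -0.57 at 1 d to -0.34 at 14 d and missed the 1.5-fold limit, which each of them passed after median-ratio scaling (-0.72 at 1 d, -0.71 at 28 d). Reads of Jun and Junos cannot be told apart where the genes overlap.

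Hook1, a linker of vesicles to the microtubule motor dynein, starts 480 kb away. Its means were 5.25 ± 0.929 FPKM at 0 d, 12.6 ± 1.47 at 3 d and 5.42 ± 0.217 at 28 d (SD, n = 4 each). It rose at 3 d by 1.12 (limma adjusted p = 4.61e-11) and fell by 1.07 between 3 and 28 d (limma adjusted p = 3.01e-10), or by 1.02 without D3a. Its calls at 1, 5 and 7 d (0.62 to 0.64) were lost after median-ratio scaling (0.30 to 0.47) and without day 0 library C2 (0.55 to 0.56), and at 1 d also without C1 (0.58). Hook1 thus peaked when Gm830 was near its lowest.

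Between 3 and 28 d, when Gm830 climbed, Fggy and n-R5s189 were higher and Hook1 was lower among the 13 neighbours tested. Over all genes tested 7.46% were higher and 4.54% lower in that comparison. Without D3a, Gm12707 was also called (0.59). Cyp2j6, a cytochrome P450 whose start lies 1066 kb away and the next tested gene beyond Hook1, had means of 2.40 ± 0.239 FPKM at 0 d, 3.74 ± 0.656 at 3 d and 4.98 ± 0.433 at 28 d (SD, n = 4). It rose against 0 d at 5, 7, 14 and 28 d (log2 differences 0.75, 0.64, 0.62 and 0.81, limma adjusted p = 0.000302 at 28 d), and between 3 and 28 d it was not called (0.34, limma adjusted p = 0.133). After median-ratio scaling each of these calls was lost (0.46, 0.35, 0.32 and 0.52), as was that at 5 d without D5a (0.58), at 7 d without D7d (0.46) and at 14 d without D14d (0.55).

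**Figure D3:**
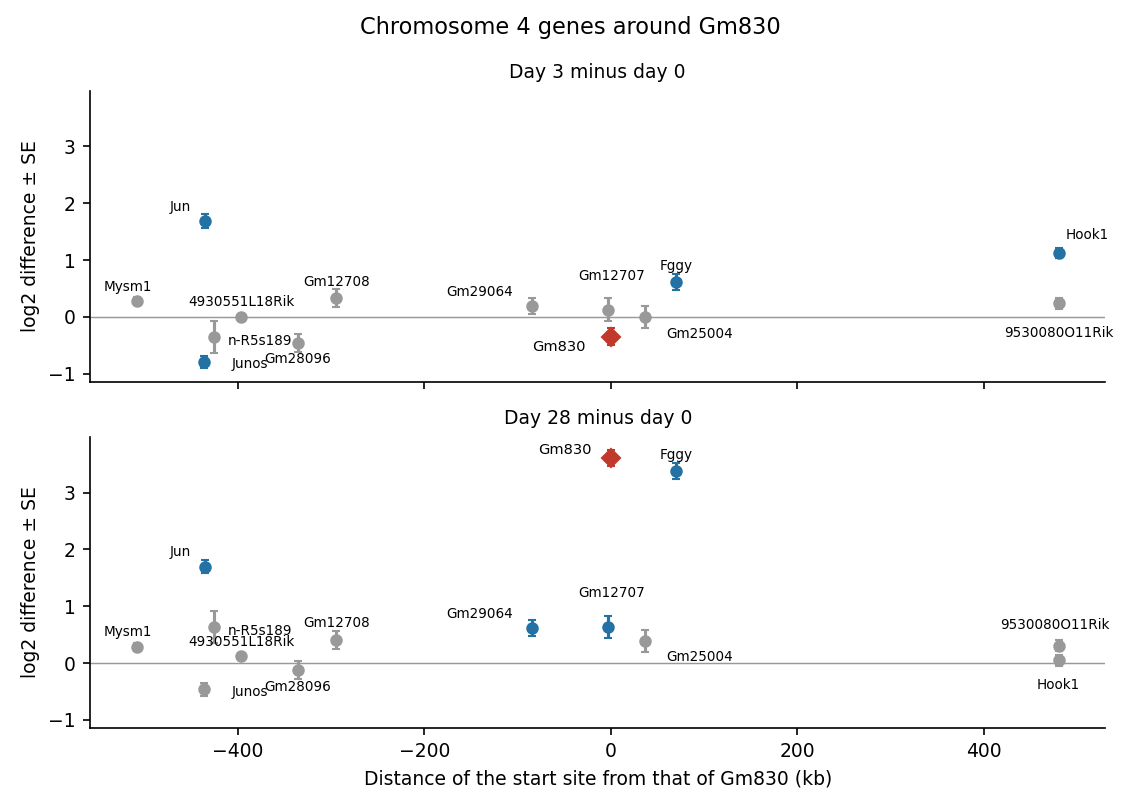
Log2 difference from 0 d ± SE of Gm830 (diamond) and its 13 tested neighbours (circles, blue where called) at 3 d (top) and 28 d (bottom), against the distance of their start sites from that of Gm830 in kb. At 28 d Gm830 (3.61) and Fggy (3.38) stand above the others, of which Jun (1.70) is next, and at 3 d Gm830 lies at -0.35.

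Deviations of Gm830 from its group means were also set against those of 11 chromosome 4 genes over the 32 samples, so that the time course itself was removed. These were Cyp2j6 and 10 of the 13 tested neighbours, Jun, Mysm1 and n-R5s189 being left out as outside the rule for named genes. This relation was added after the data were seen. With Fggy, Pearson's r was 0.108 (permutation p within time points = 0.581, adjusted over 11 relations 0.710) and Spearman's rho 0.0572 (permutation p = 0.771), and r was 0.0924 without the 2 samples whose Gm830 deviated most, D28d and D14b. The largest r, 0.464, was with 9530080O11Rik (permutation p = 0.0163, adjusted 0.179; rho 0.378, permutation p = 0.0503). It fell to 0.290 without those 2 samples, and none of the 11 relations passed after Benjamini-Hochberg adjustment.

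The likeness of other genes to Gm830 was measured as Pearson's r between the 8 group means on the log2 scale, over 3544 genes whose means spanned at least 1. It is a description, and the points share libraries and the time course. The 10 closest genes lay between 0.985 and 0.990, and 127 genes had an r of at least 0.95. The 10 were Ighg2c, Ssbp2, Lrrn1, Tspan3, Gm34006, Rogdi, Gm12596, Gm45881, Zc2hc1a and Car3. Fggy was at rank 17 (r 0.982).

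Of the 10, 3 were noncoding genes. Gm34006, an antisense transcript on chromosome 10, went from 0.252 ± 0.0974 FPKM at 0 d to 22.2 ± 1.91 at 28 d (SD, n = 4). Gm12596, on chromosome 4 but outside the 500 kb window, averaged 0.0249 ± 0.0498 at 0 d and lay between 9.73 and 13.2 at 28 d. Gm45881 on chromosome 9 averaged 0.160 ± 0.191 at 0 d and 13.5 ± 2.70 at 28 d. All of them were at or under 0.380 FPKM in every 0 d sample, so lower there than the mean of Gm830 (0.604). Unlike Gm830, Gm34006 had a higher mean at 3 d (0.779 ± 0.542) than at 0 d, while Gm12596 had at most 3 fragments in any library on those days.

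Of the other genes, Ighg2c, which the annotation lists as an immunoglobulin constant-region gene and which encodes that part of the antibody heavy chain IgG2c, went from 1.16 ± 0.342 FPKM at 0 d and 1.38 ± 0.445 at 3 d to 33.0 ± 2.50 at 28 d (SD, n = 4). Lrrn1, a leucine-rich repeat membrane protein, stood at 4.19 ± 1.83, 4.26 ± 1.59 and 63.1 ± 9.76 at the same days. Car3, the carbonic anhydrase of slow muscle fibres and fat cells, went from 1079 ± 49.2 at 0 d down to 552 ± 52.8 at 3 d and up to 6346 ± 222 at 28 d. Ssbp2, Tspan3, Rogdi and Zc2hc1a had smaller changes, with 28 d means 2.07 to 3.08 times those of 0 d.

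**Figure D4:**
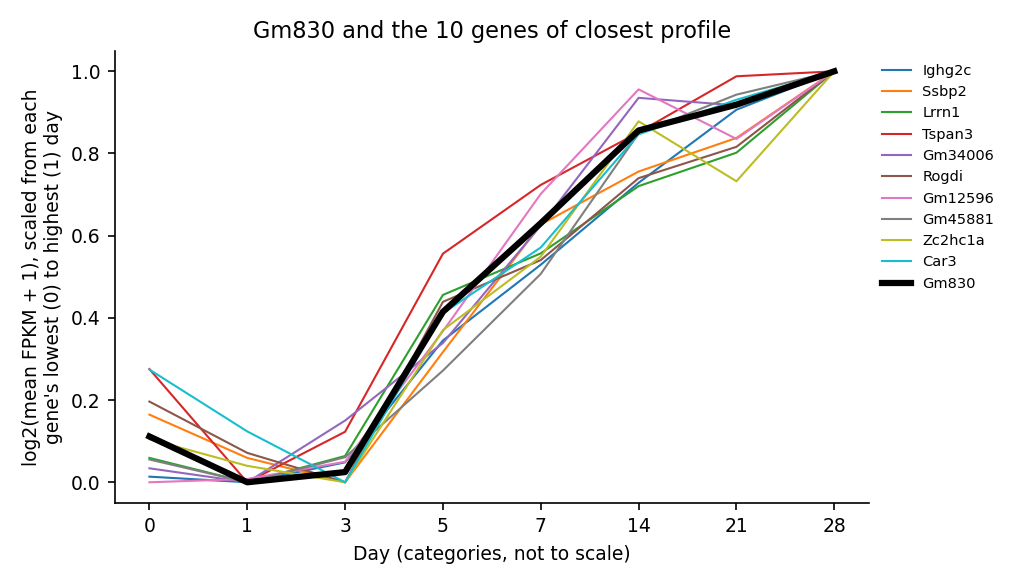
Group means by day as log2(mean FPKM + 1), scaled in each gene from its lowest (0) to its highest (1) day, for Gm830 (thick black line) and the 10 genes of closest profile. Each of the 11 lines is at its highest at 28 d and at its lowest at 0, 1 or 3 d, and at 0 d Ssbp2, Rogdi, Car3 and Tspan3 start higher on their own scale than Gm830.

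Which genes were closest depended on the measure. By r over the 32 samples, 5 of the 10 remained (Ighg2c, Lrrn1, Gm34006, Gm12596 and Car3) and Enpp3, Gm14221, Khk, Fam83d and Fggy took the other places. By Spearman's rho 1 of the 10 remained. Fggy ranked 9 by r over the samples and 104 by rho.

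An ordered course, at or below the 0 d mean at 1 and 3 d and rising at every step from 3 to 28 d, was met by 257 of the 22071 genes tested, Gm830 included. Of the 257, 221 ended higher and 36 lower at 28 d than at 0 d. Ranked by the difference between 28 and 0 d, Gm830 was the second of them, after the noncoding gene Gm37800, which went from 0.0491 ± 0.0328 to 24.0 ± 5.72 FPKM (SD, n = 4). The next 6 in this ranking, named after their values were seen, were Fam83d, Car3, Pgm5, Tnnt1, H2-Eb1 and H2-Aa. Tnnt1, the slow skeletal troponin T, went from 82.9 ± 41.0 at 0 d and 31.1 ± 12.4 at 3 d to 380 ± 88.1 FPKM at 28 d, and Pgm5, a cytoskeletal protein of muscle adhesion sites, from 8.03 ± 0.836 and 5.84 ± 1.92 to 51.8 ± 4.09. The MHC class II genes H2-Eb1 and H2-Aa reached 80.2 ± 12.7 and 53.5 ± 5.74 FPKM at 28 d from 17.3 ± 2.93 and 12.0 ± 2.53.

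In whole muscle, fewer cells of a type and less RNA per cell cannot be told apart, and which cells held Gm830 was not tested. Marker genes of the cell types that GAS muscle can hold were therefore read beside it. At 28 d all 15 of 15 denervation-responsive junction and myogenic genes were higher than at 0 d (median log2 difference 4.15), where 14.2% of all genes tested were. Their summed level was 42.5 to 54.9 FPKM at 0 d, 2057 to 2265 at 3 d and 1465 to 1595 at 28 d, highest of these days at 3 d. That order rests on Ankrd1, since the sum of the other 14 was 37.9 to 51.9 FPKM at 0 d, 631 to 878 at 3 d and 1035 to 1146 at 28 d. Between 3 and 28 d 8 of the 15 were higher and 3 lower (median 0.66), where 7.46% and 4.54% of all genes tested were. Ankrd1, a muscle ankyrin repeat protein and the most abundant of the list, was at 3.84, 1360 and 459 FPKM on days 0, 3 and 28 and was lower at 28 d than at 3 d. Gadd45a, a stress-response gene, was at 3.95, 198 and 242 FPKM on these days.

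Of 12 mature myofibre genes, 2 rose and 8 fell at 28 d, where 14.2% of all genes tested rose and 4.1% fell (median -0.73, summed 54417 to 57470 FPKM at 0 d, 28289 to 33262 at 3 d and 29812 to 34567 at 28 d). Acta1 fell by 0.65 and Tnnt3, fast troponin T, fell by 0.88 on the log2 scale (limma adjusted p = 0.000122 and 1.95e-06). Of 9 satellite cell genes 3 rose and 0 fell (median 0.28). The ranges of the myofibre sum at 3 and 28 d overlapped.

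Macrophage genes rose in 8 of 10 cases at 28 d (median 1.26), beside 14.2% of all genes tested, with Lyz2 at 118 FPKM at 0 d, 399 at 3 d and 350 at 28 d. Their sum was 166 to 242 FPKM at 0 d, 325 to 1158 at 3 d and 542 to 633 at 28 d. Of 6 neutrophil genes tested 2 rose (median 0.59), as did 2 of 7 B and plasma cell genes (median 0.07), one of them Igkc (0.798 FPKM at 0 d, 0.403 at 3 d and 7.38 at 28 d). Ighm, the IgM heavy chain and the most abundant gene of that list, was at 40.2, 5.29 and 26.1 FPKM on these days and was not called at 28 d against 0 d. The list's sum was 26.9 to 53.8 FPKM at 0 d, 3.92 to 8.84 at 3 d and 25.3 to 46.8 at 28 d, so the 0 and 28 d ranges overlapped. That overlap rests on Ighm. The sum of the other 8 genes was 1.46 to 2.32 FPKM at 0 d, 0.221 to 1.87 at 3 d and 3.13 to 13.5 at 28 d. By limma 0 of 9 T cell genes (median 0.20) and 0 of 8 mast cell genes (median 0.00) were called, while at an unadjusted p under 0.05 the T cell list had 6 higher and 1 lower and the mast cell list 0 and 1, beside 41.8% and 11.1% of all genes tested.

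Of 12 Schwann cell genes 3 rose and 6 fell at 28 d (median -0.25), beside 14.2% and 4.1% of all genes tested. Endothelial genes (0 higher and 1 lower of 10, median -0.44), pericyte and smooth muscle genes (1 and 2 of 9, median -0.30) and fibroblast genes (2 and 0 of 12, median 0.27) were mostly not called. At an unadjusted p under 0.05 from limma, however, 0 of the 10 endothelial genes were higher and 7 were lower. The same counts were 5 and 6 for the Schwann cell, 1 and 3 for the pericyte and smooth muscle, and 3 and 0 for the fibroblast list, where 41.8% of all genes tested were higher and 11.1% lower. The single retina gene tested, Opn1sw, was not called (log2 difference 0.24).

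Against 0 d, 3 of 8 tendon genes were higher and 0 lower at 28 d (median 0.36), and 1 of 10 adipocyte genes was higher and 1 lower (median 0.31), beside 14.2% and 4.1% of all genes tested. Between 3 and 28 d 7 of the 8 tendon genes were higher and 0 lower (median 1.32), and the tendon sum was 180 to 317 FPKM at 0 d, 70.1 to 198 at 3 d and 296 to 446 at 28 d. Of the 10 adipocyte genes 4 were higher and 1 lower (median 0.86), and of the 7 B and plasma cell genes 3 were higher and 0 lower (median 0.55), beside 7.46% and 4.54% of all genes tested. The adipocyte sum was set by Car3, the only member called higher at 28 d against 0 d. Cfd, the fat cell factor adipsin, stood at 162 FPKM at 0 d, 71.3 at 3 d and 287 at 28 d and was not called against 0 d (log2 difference 0.71, limma adjusted p = 0.226). The part of any of these cell types in the rise of Gm830 was not tested.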

How the data were processed

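Gm830 and all gene and marker lists were chosen with earlier results of these data known. The authors deposited FPKM values for 33397 genes and 32 samples. The submitters' processing notes name CASAVA, HISAT2 2.1.0, DESeq2 and GRCm38, and the counter and its strand setting are not given in the sources used here. Fragments were recovered from FPKM and merged exon lengths of the GENCODE mouse annotation (33356 genes matched), and 99.26% to 99.34% of values under 200 fragments came out within 0.02 of a whole number. The columns name time points but no single sample. Values of 3 fragments or fewer were treated as at the floor, which covers counting error only.

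The 22071 genes that reached 0.1 FPKM in 4 or more samples were tested as log2(FPKM + 1) with limma 3.58.1 in R 4.3.3 (lmFit, eBayes with trend, all 32 samples, no covariate) after checks on simulated data. Calls needed both 1.5-fold and a p under 0.05 after Benjamini-Hochberg adjustment over these genes. The median-ratio and TPM scalings, a pseudocount of 0.1, filters, the variance trend, 2-group fits and leaving out each sample were alternatives. Permutations numbered 100000, in Python 3.11.15 with numpy 2.4.6, pandas 2.3.3 and matplotlib 3.10.9. Genes named were Gm830, those overlapping it, the 5 nearest tested on each side, the 10 closest profiles and the most abundant genes of each marker list. The result of 1 gene that this rule covers is not reported here.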

Additional observations from a re-analysis of the deposited data

Results flagged for a closer look

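The level of Gm830 itself held no sample far from the other 3 of its day. Dixon's criterion was applied to Gm830, Jun, 10 other tested neighbours and Cyp2j6, leaving out groups of 4 equal values. Of the 96 groups of 4 samples examined, 11 held such a sample, where chance gives about 1 in 20 groups, or 4.8. Of the 11, 7 rest on 3 fragments or fewer. Fggy was at 14.6 FPKM in D7c, with 1432 fragments, against 8.81 to 9.43 in the other 7 d samples. Gm12707 was at 1.32 in D7d (others at most 0.366), Junos at 1.42 in D28a (others at most 1.09), and 9530080O11Rik was low in D14b at 0.134 (others 0.419 to 0.443).

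The values on few fragments were those of 4930551L18Rik in D1d (0.0865), D5c (0.164), D7d (0.184) and D14b (0.247 FPKM), of Gm29064 in D1d (0.149), and of Gm25004 in D5d (0.727) and D7d (0.4). The differences from 0 d at 3 d and at 28 d were not alike in Hook1 and Fggy: by limma, with Benjamini-Hochberg adjustment, Hook1 differed by -1.07 and Fggy by 2.77 on the log2 scale between 28 and 3 d.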

How the results depend on the processing

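The log2 differences of Gm830, a gene chosen for its course, kept their direction under each scaling, pseudocount and left-out sample. With a pseudocount of 0.1 they were -1.36, -1.02, 2.10, 3.19, 4.18, 4.47 and 4.80 at 1, 3, 5, 7, 14, 21 and 28 d, and 5.82 between 28 and 3 d. As TPM they were -0.74, 1.85, 2.87, 3.86, 4.07 and 4.42 at 1, 5, 7, 14, 21 and 28 d, and 4.96 between 28 and 3 d. Median-ratio scaling gave 1.93 at 7 d in place of 2.13.

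With a pseudocount of 0.1 the called neighbours numbered 7, 8, 8, 8 and 8 at 3, 5, 14, 21 and 28 d and 7 between 28 and 3 d. As TPM they numbered 5, 4 and 7 at 5, 21 and 28 d and 5 between 28 and 3 d. A filter at an FPKM of 1 left 2 at 28 d, since fewer genes were tested. At 1 d, leaving out each sample gave 1 to 3, with 1 without C2 and 3 without C3 or D1d. Over all genes, a pseudocount of 0.1 called 3621, 6847, 6934, 7267, 7138, 6057 and 7277 from 1 to 28 d and 4938 between 28 and 3 d, and TPM called 3278, 7107, 7418, 7569, 5675 and 7169 at 1, 5, 7, 14, 21 and 28 d. The cause was not tested.

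Of the 10 genes of closest profile, 1 remained with a pseudocount of 0.1, 4 with median-ratio scaling, 3 as TPM, 5 by r over the samples, 1 by rho and 2 with no minimum range. Leaving out each sample kept 7 to 10. At 28 d the share of called genes that were higher was 77.6% as deposited, 44.8% after median-ratio scaling and 87.6% as TPM. No paired analysis was possible because the columns carry letters or numbers that are tied to no sample label. Below 0.1 FPKM, depth limits each value to a few fragments.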
